A study of Mus musculus with 8 samples.

Results

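The S100 genes encode small calcium-binding proteins, each built around a pair of EF-hand loops, and 8 of them that bone marrow-derived macrophages (BMDM) express at some level were followed here, *S100a1*, *S100a4*, *S100a6*, *S100a8*, *S100a9*, *S100a10*, *S100a11* and *S100a13*. They were chosen by symbol from the 53819 genes of the count table. The 8 libraries came from marrow of 4 female Balb/CJ mice aged 8 weeks. Marrow cells were grown into macrophages over 5 days in the presence of M-CSF (macrophage colony-stimulating factor, 25 ng/mL), then kept for 48 h with 2.5 µM unconjugated bilirubin, the end product of heme breakdown, or with its vehicle, DMSO. Each mouse gave 1 vehicle and 1 bilirubin culture, so n = 4 per group and each bilirubin culture had a vehicle culture of the same mouse. The question was which S100 transcripts changed with bilirubin treatment, and how these genes stood relative to one another.

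S100 proteins mostly act as dimers. Inside the cell they bind target proteins when calcium rises, and several leave the cell by routes that bypass the secretory pathway. S100A8 and S100A9 together form calprotectin, an abundant protein of neutrophils and newly recruited monocytes that sequesters metal ions and engages TLR4 and RAGE (the receptor encoded by *Ager*). S100A10 has lost calcium binding and forms a tetramer with annexin A2 at membranes. S100A4 binds nonmuscle myosin heavy chain IIA, S100A6 binds the calcyclin-binding protein CACYBP, S100A11 binds annexin A1, S100A13 takes part in the release of FGF1 and IL-1α, and S100A1 is best known from cardiac muscle, where it binds the sarcoplasmic calcium pump and the ryanodine receptor.

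All 8 genes lie on mouse chromosome 3 (GRCm39). *S100a1* (chr3:90418340-90421848, minus strand), *S100a13* (chr3:90421742-90431912, plus), *S100a4* (chr3:90511075-90513354, plus), *S100a6* (chr3:90520590-90521721, plus), *S100a8* (chr3:90576285-90577348, plus) and *S100a9* (chr3:90599932-90603071, minus) share a single stretch of the chromosome. *S100a11* (chr3:93427677-93435293, plus) and *S100a10* (chr3:93462213-93474510, plus) start 2851 and 2886 kb from the start of *S100a8*. The transcripts placed here have 3 exons each, and that of *S100a13* has 4. Their coding sequences run from 267 bases (*S100a6* and *S100a8*) to 339 bases (*S100a9*) without the stop codon. In global alignments, identity was taken as matching bases over the length of the longer coding sequence, so unequal lengths lower it. On this measure *S100a4* with *S100a6* had the highest value, 62.4%. *S100a8* with *S100a9*, the shortest and longest sequences, had the lowest, 49.6%, which therefore does not rank that pair by divergence alone.

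Windows around the start site (250 bases before to 50 after, RefSeq, GRCm38.p6) were matched for 7 of the 8 genes, all but *S100a10*. The windows of *S100a8*, the gene with the greatest rise among those tested, of its complex partner *S100a9*, and of *S100a11* are shown, each 5′ to 3′ on the gene's own strand, since they hold most of the motif matches. Capitals mark the matches. In *S100a8* (chr3:90668821-90669120, plus) they are a C/EBP match (TTNNGNAA). In *S100a9* (chr3:90695672-90695971, minus) they are a C/EBP match and then an NF-kB match (GGGNNTTTC) that runs into another C/EBP match. In *S100a11* (chr3:93520246-93520545, plus) they are a hypoxia response element (ACGTG, present on both strands) and a pair of AP-1 matches (TGANTCA).
S100a8: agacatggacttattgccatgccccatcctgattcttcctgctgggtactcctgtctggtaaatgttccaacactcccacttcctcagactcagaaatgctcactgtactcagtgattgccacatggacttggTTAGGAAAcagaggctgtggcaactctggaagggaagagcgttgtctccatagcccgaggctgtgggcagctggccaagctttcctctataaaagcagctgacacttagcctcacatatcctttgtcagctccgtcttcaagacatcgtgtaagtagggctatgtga
S100a9: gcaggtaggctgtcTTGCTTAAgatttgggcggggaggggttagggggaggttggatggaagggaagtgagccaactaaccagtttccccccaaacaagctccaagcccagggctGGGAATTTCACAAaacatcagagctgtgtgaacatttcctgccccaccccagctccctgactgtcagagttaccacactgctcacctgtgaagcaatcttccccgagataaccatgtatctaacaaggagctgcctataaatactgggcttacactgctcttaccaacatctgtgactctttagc
S100a11: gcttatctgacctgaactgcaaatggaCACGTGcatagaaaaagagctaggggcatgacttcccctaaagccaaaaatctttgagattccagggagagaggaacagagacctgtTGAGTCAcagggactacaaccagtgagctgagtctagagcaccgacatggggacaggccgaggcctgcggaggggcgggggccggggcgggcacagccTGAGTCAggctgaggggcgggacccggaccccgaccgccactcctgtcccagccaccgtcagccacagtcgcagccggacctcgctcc

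The C/EBP match of *S100a8* began 117 bases before the start, and those of *S100a9* began 236 and 130 bases before it, the latter overlapping the NF-kB match that began at 135. The AP-1 matches of *S100a11* began 136 and 38 bases before the start. The motifs were searched on both strands, and several are common: of 32851 promoter windows, 40.7% held the C/EBP letters, 19.6% the hypoxia letters, 7.81% the AP-1 letters and 4.36% the NF-kB letters. Of the 7 windows, 2 held C/EBP, 2 hypoxia (*S100a11* and *S100a6*), 1 AP-1 and 1 NF-kB. None of the 7 held the STAT letters (TTCNNNGAA, in 8.3% of all windows) or the antioxidant response element letters (TGACNNNGC, in 12.4%). A match describes letters in this window and is not evidence of binding.

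In the RefSeq annotation of GRCm38.p6, *S100a1* and *S100a13* are transcribed away from each other from starts that lie 105 bases apart. The GENCODE transcripts placed above on GRCm39 have starts that pass each other, so that these genes overlap there. The window of *S100a13* (GRCm38.p6, chr3:90514185-90514484, plus) is shown with the bases between both starts in capitals, because these genes share sequence around their starts.
S100a13: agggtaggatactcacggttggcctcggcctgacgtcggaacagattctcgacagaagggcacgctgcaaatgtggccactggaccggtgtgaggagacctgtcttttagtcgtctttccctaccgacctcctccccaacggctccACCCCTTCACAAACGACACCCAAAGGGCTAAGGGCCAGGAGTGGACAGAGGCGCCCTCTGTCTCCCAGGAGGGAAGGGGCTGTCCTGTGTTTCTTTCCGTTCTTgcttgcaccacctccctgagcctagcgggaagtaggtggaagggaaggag

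The cultures carried macrophage transcripts. Of 10 macrophage markers all were well above the count filter, and their summed level was 24107 to 24317 CPM (counts scaled to a common library total) in vehicle libraries and 28294 to 30360 with bilirubin. *Adgre1* (F4/80), *Itgam* (CD11b) and *Lyz2* (lysozyme) were called higher, and none of the 10 lower, with a median log2 fold change of -0.15 over the 10. Among all 13722 tested genes 4.49% were called higher and 3.04% lower. Most of the rise in the sum was *Lyz2*, which went from 19145 to 24369 CPM. *C1qc* (complement C1q C chain), *Mrc1* (CD206) and *Cd68* had log2 fold changes of -0.44, -0.40 and -0.16 that did not pass (edgeR adjusted p = 0.0871, 0.233 and 0.0924). Libraries held 34142781 to 47071714 counts, of which 3.05 to 3.59% were mitochondrial. Lists for dendritic cells, lymphocytes, mast cells and erythroid cells summed to at most 0.622 CPM in any library, and that for fibroblasts to at most 5.68 CPM. Counts are of bulk cultures, so fewer cells of a type and less RNA per cell cannot be told apart.

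The 8 genes covered a wide range of levels in vehicle cultures. On the TPM scale (transcript abundance corrected for length and library total), *S100a4* was at 2749 ± 209 (SD, n = 4) and ranked 37th of all 53819 genes. *S100a6* followed at 1325 ± 110, *S100a11* at 733 ± 25.6, *S100a10* at 553 ± 22.7, *S100a1* at 262 ± 18.6, *S100a13* at 81.5 ± 5.23 and *S100a8* at 55.8 ± 4.93. *S100a9* closed the order at 0.359 ± 0.438 TPM, or 0.154 TPM without mouse 1. No neighbouring genes in this order overlapped between their lowest and highest vehicle libraries. The order was the same with bilirubin except that *S100a8* (87.3 to 146 TPM) passed *S100a13* (76.6 to 87.2 TPM). *S100a8* moved from rank 2668 to rank 1201 of all genes, while *S100a4* went from 37 to 32 and *S100a6* from 76 to 65. The 8 genes together made up 0.576 ± 0.0332% of all TPM in vehicle cultures and 0.663 ± 0.0384% with bilirubin, higher in 4 of 4 mice. On the CPM scale, which does not correct for length, *S100a10* stood above *S100a11*, and the mean of *S100a13* stayed above that of *S100a8* with bilirubin, although in mouse 3 *S100a8* was the higher of them. The place of *S100a10* and *S100a11* therefore rests on the transcript lengths used in quantification, 685 and 511 bases, where a newer annotation gives 3419 and 2328 bases.

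**Figure D1:**
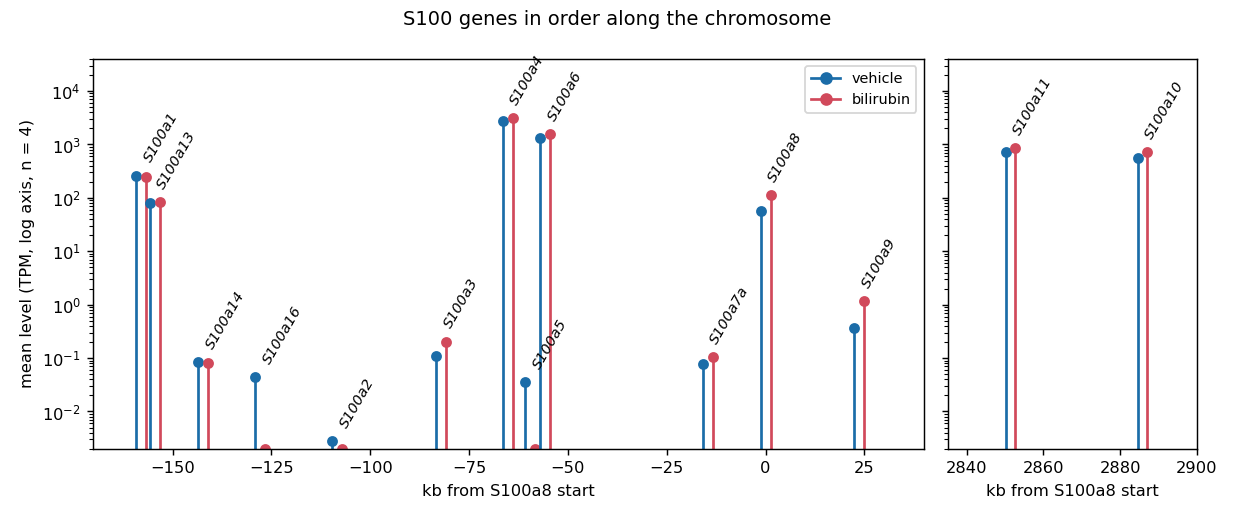
Mean transcript level (TPM, log axis, n = 4 libraries per group) of S100 genes against position, vehicle in blue and bilirubin in red, drawn slightly apart. Position is the lowest coordinate of each gene, in kb from the start of *S100a8*. For *S100a1* and *S100a9*, on the minus strand, this is the end of the transcript. Points on the bottom axis are genes at 0. The 8 genes described have vehicle means of 0.359 TPM or more. The means of *S100a14*, *S100a16*, *S100a2*, *S100a3*, *S100a5* and *S100a7a*, which lie among them, stay under 0.25 TPM. Single libraries of *S100a9* and *S100a3* overlap.

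Expressed and near-silent genes alternated along the chromosome. *S100a5*, which lies between *S100a4* and *S100a6*, had a single count in 1 of the 8 libraries. *S100a2*, *S100a3*, *S100a14*, *S100a16* and *S100a7a* had at most 7 counts in any library. Of the 10 other S100 genes in the table, 3 (*S100a7l2*, *S100g* and *S100z*) were at 0 in all 8 libraries, the highest count was 10 (*S100b*), and none had enough counts to be tested.

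Bilirubin treatment was accompanied by higher levels of 5 S100 transcripts, *S100a8*, *S100a10*, *S100a11*, *S100a6* and *S100a4*, and none was called lower. *S100a1* and *S100a13* were tested and not called, and *S100a9* had too few counts for the test. Calls are from edgeR's quasi-likelihood test on counts with mouse and treatment in the model, at a Benjamini-Hochberg adjusted p under 0.05 over 13722 tested genes. Across all tested genes 7.53% were called, 4.49% higher and 3.04% lower. The 7 tested S100 genes each had at least 433 counts in every library of both groups, so none entered through 1 group alone. Their median log2 fold change was 0.24, against -0.0018 over all tested genes. The sizes were modest apart from *S100a8*: the median of the 616 genes called higher was 0.41, and *S100a8* and *S100a10* lay above it while *S100a4*, *S100a6* and *S100a11* lay below.

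**Figure D2:**
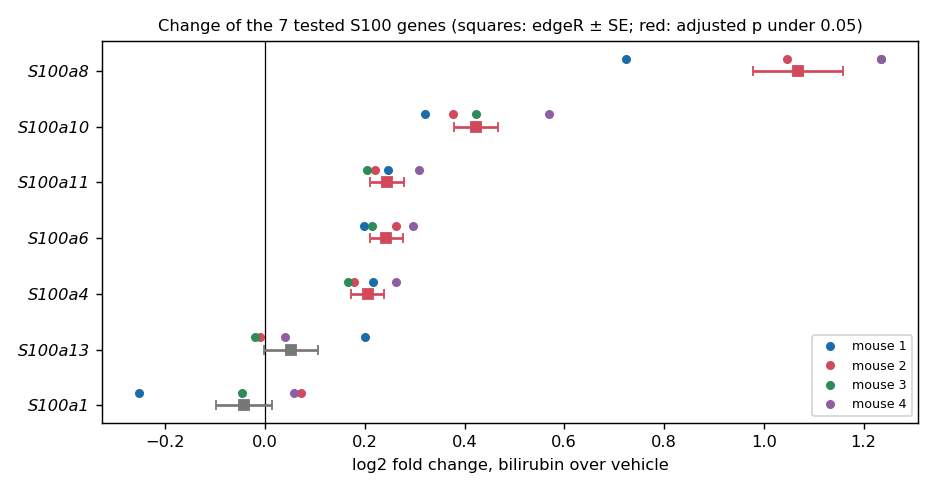
Log2 fold change of bilirubin over vehicle for the 7 tested S100 genes, as the edgeR estimate ± SE (squares, red where the adjusted p was under 0.05) and for each mouse (circles, log2 CPM difference). All 4 mice lie to the right of 0 for the 5 red genes, and on both sides of 0 for *S100a13* and *S100a1*.

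*S100a8* rose most. With vehicle, mice 1 to 4 gave 52.7, 55.6, 62.9 and 52.2 TPM, and bilirubin cultures 87.3, 110, 146 and 115 TPM. The lowest bilirubin culture, that of mouse 1, was above the highest vehicle culture, that of mouse 3, so the groups did not overlap. The share of all tested genes whose groups did not overlap was not counted, here or for the genes below. The spread was greater with bilirubin, with an SD of 24.3 TPM against 4.93. In counts the gene had 502, 433, 572 and 459 reads in vehicle libraries and 607, 858, 1241 and 1024 with bilirubin. The fitted change was a log2 fold change of 1.07 (SE 0.09, 95% interval 0.86 to 1.28, edgeR adjusted p = 3.34e-04), or 2.10-fold. Single mice gave log2 changes of 0.72, 1.05, 1.24 and 1.24. It ranked 111th by size among the 616 genes called higher. A transcript with a retained intron made up 11.8 ± 2.51% of the gene's TPM in vehicle cultures and 11.6 ± 2.12% with bilirubin, so the spliced and the retained forms kept their proportions while both levels were higher in 4 of 4 mice.

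*S100a9*, the partner of *S100a8* in calprotectin, was barely detected. It had 10, 3, 1 and 0 counts in the vehicle libraries of mice 1 to 4, and 20, 4, 8 and 6 with bilirubin. Each bilirubin library exceeded that of its own mouse, and the groups overlapped because mouse 1 had 10 counts with vehicle. Summed over libraries these were 14 and 38 counts, a depth-corrected ratio of 3.08 (95% exact interval 1.63 to 6.15, counting error only). Over the 4 mice an exact two-sided sign-flip permutation test gave p = 0.13, the smallest that 4 pairs can give. Fitted without the filter on low counts, the log2 fold change was 1.93 (SE 0.89, edgeR adjusted p = 0.29), which is not called. The TPM of *S100a8* exceeded that of *S100a9* 54.1, 155 and 615 times with vehicle in mice 1 to 3, and 32.6, 231, 167 and 183 times with bilirubin in mice 1 to 4. *S100a9* was listed at 0 in the vehicle culture of mouse 4. The 2 transcripts of the complex were thus present in very unequal amounts in every library of both groups.

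Because calprotectin is best known from granulocytes, their markers were read beside *S100a8*. The list of 17 neutrophil and granulocyte precursor genes summed to 158 to 184 CPM in vehicle libraries and 174 to 203 with bilirubin, higher in 4 of 4 mice. Most of this was *Mmp8* (neutrophil collagenase, 143 and 163 CPM), which was not called (edgeR adjusted p = 0.0749), and *Csf3r* (the G-CSF receptor, 23.9 and 23.1 CPM). Most of the other genes on the list had few counts. *Ltf* had at most 30 in any library, *Cxcr2* at most 27, *Prtn3* at most 19 and *Mpo* at most 18, while *Cebpe* had 116 to 183. *Ly6g* had 0 counts in 7 libraries and 3 in the bilirubin culture of mouse 3, and *Camp* (cathelicidin) had at most 3 counts. *Elane* (neutrophil elastase) had at most 7 counts and *Ngp* (neutrophilic granule protein) at most 28, while *Retnlg*, *Fcnb*, *Stfa2* and *Stfa2l1* were at 0 in every library. Without *Mmp8*, *Csf3r*, *Cxcr2*, *Cebpe* and *Lcn2*, the 12 genes left summed to 85, 8, 39 and 25 counts with vehicle in mice 1 to 4. With bilirubin they summed to 77, 26, 60 and 2. Of the 17 genes 6 were tested, and only *Lcn2* (lipocalin 2) was called: it went from 1 to 6 counts per library to 66 to 178, a log2 fold change of 5.18 (SE 0.32, edgeR adjusted p = 7.58e-05). The shares called over all tested genes were 4.49% higher and 3.04% lower. Of 6 monocyte genes 3 were tested. *Vcan* (versican) was called higher, with a log2 fold change of 2.26, and *F13a1* (coagulation factor XIII A chain) lower, by -0.99. *Ccr2* was tested and not called, with a log2 fold change of -0.15 (edgeR adjusted p = 0.75). *Ly6c2*, not tested, had at most 8 counts in any library. The *F13a1* call was marginal (edgeR adjusted p = 0.0479, called under 9 of 13 alternative settings). Whether cells of these types had a part in the change of *S100a8* was not tested.

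**Figure D3:**
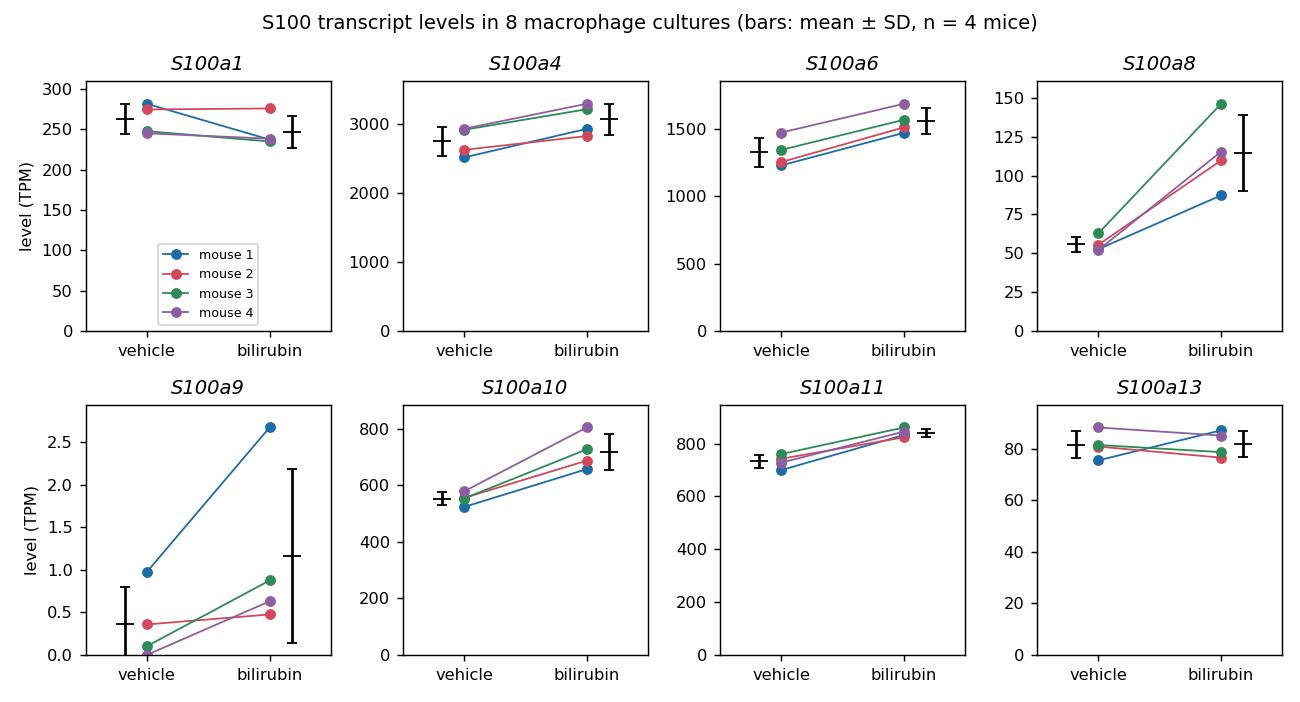
Level (TPM, axis from 0) of each of the 8 S100 genes in the vehicle and the bilirubin culture of each mouse, joined by a line per mouse, with mean ± SD (n = 4) as black bars. *S100a8*, *S100a10* and *S100a11* have bilirubin cultures that all lie above all vehicle cultures, and *S100a9* stays under 3 TPM (its vehicle bar is cut at 0). How many of all tested genes separate in this way was not counted.

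*S100a10*, whose product pairs with annexin A2, showed the next largest change. It was at 524, 556, 554 and 579 TPM in vehicle cultures and at 658, 688, 728 and 805 TPM with bilirubin. The groups did not overlap, and mouse 4 was highest in both. The log2 fold change was 0.42 (SE 0.04, 95% interval 0.32 to 0.52, edgeR adjusted p = 9.52e-04), with single mice between 0.32 and 0.57. *Anxa2* also rose, by a log2 fold change of 0.25 (SE 0.04, edgeR adjusted p = 0.00401, called under 11 of 13 alternative settings), from 567 to 654 TPM. On the TPM scale the complex partners were near parity, with the quantified *S100a10* transcript at 685 bases, where a newer annotation gives 3419. In CPM, without length correction, the ratio of *S100a10* to *Anxa2* was 0.386 to 0.404 with vehicle and 0.428 to 0.467 with bilirubin. Parity therefore rests on the lengths used. The ratio of *S100a10* to *Anxa2* in TPM was 0.981, 0.996, 0.945 and 0.978 in vehicle cultures and 1.07, 1.13, 1.06 and 1.15 with bilirubin. Every bilirubin culture had the higher ratio, by a mean log2 change of 0.17 ± 0.05 (SD, n = 4). The exact sign-flip permutation p was 0.13, the smallest possible with 4 pairs.

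*S100a11*, a binding partner of annexin A1, moved less but evenly. Its levels were 700, 743, 760 and 728 TPM in vehicle cultures and 832, 824, 861 and 846 TPM with bilirubin. The groups were separate, with a gap wider than the SD within either group (25.6 and 16.3 TPM). The log2 fold change was 0.24 (SE 0.03, 95% interval 0.17 to 0.32, edgeR adjusted p = 0.00349). *Anxa1* was also called higher, with a log2 fold change of 0.30 (SE 0.05, edgeR adjusted p = 0.0077, called under 12 of 13 alternative settings).

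*S100a4* and *S100a6*, the most abundant S100 transcripts, rose by small amounts that were visible within mice rather than between groups. *S100a4* stood at 2517, 2627, 2918 and 2933 TPM in vehicle cultures and at 2932, 2827, 3216 and 3295 TPM with bilirubin. The bilirubin cultures of mice 1 and 2 lay within or below the vehicle values of mice 3 and 4, so the groups overlapped, yet each mouse was higher with bilirubin. Its log2 fold change was 0.21 (SE 0.03, 95% interval 0.13 to 0.28, edgeR adjusted p = 0.00625). Without the mouse in the model the edgeR adjusted p was 0.197, so this call depends on the pairing. With mouse 1, 2, 3 or 4 left out it was 0.00168, 0.0335, 0.0477 and 0.0696, so the call was lost without mouse 4. The log2 fold change stayed between 0.19 and 0.22 in these fits. *Myh9*, the myosin that S100A4 binds, had a log2 fold change of 0.09 (edgeR adjusted p = 0.304).

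*S100a6* stood at 1229, 1254, 1344 and 1473 TPM in vehicle cultures and at 1471, 1511, 1568 and 1686 TPM with bilirubin. Only the bilirubin culture of mouse 1 fell below a vehicle culture, that of mouse 4. The log2 fold change was 0.24 (SE 0.03, 95% interval 0.17 to 0.32, edgeR adjusted p = 0.00299), and without the mouse in the model the edgeR adjusted p was 0.0887. *Cacybp* had a log2 fold change of 0.03 (edgeR adjusted p = 0.79). The TPM of *S100a6* was spread over more transcripts than that of the other 7 genes. Its protein-coding transcript of 731 bases made up 38.6, 36.3, 34.5 and 34.3% of its TPM in vehicle cultures and 32.9, 30.6, 32.2 and 33.7% with bilirubin, lower in 4 of 4 mice. That of 464 bases, also protein coding, went from 51.6 ± 1.57% to 54.3 ± 1.03%, higher in 4 of 4 mice. These shifts of a few percentage points were not tested beyond their signs, and the TPM of both transcripts was higher with bilirubin in 4 of 4 mice. For *S100a1*, *S100a4*, *S100a10*, *S100a11* and *S100a13* a single transcript held nearly all of the TPM, with 97.0% in the lowest library.

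The divergent pair *S100a1* and *S100a13* was not called. *S100a1* stood at 281, 274, 248 and 245 TPM in vehicle cultures and at 237, 276, 235 and 238 TPM with bilirubin, and the groups overlapped. Its log2 fold change was -0.04 (SE 0.06, 95% interval -0.17 to 0.09, edgeR adjusted p = 0.746). *S100a13* stood at 75.5, 80.9, 81.5 and 88.3 TPM and at 87.2, 76.6, 78.7 and 85.2 TPM, with a log2 fold change of 0.05 (SE 0.05, 95% interval -0.07 to 0.18, edgeR adjusted p = 0.661). In mouse 1 the genes moved in opposite directions, by -0.25 for *S100a1* and 0.20 for *S100a13*, while in mice 2 to 4 the changes of both lay between -0.05 and 0.07. Both intervals stop short of the estimates for the 5 called genes, although differences between genes were not tested. The exons of these genes overlap by 31 bases on opposite strands, and the strand setting of the counting is not given in the sources used here. *S100a4* shares 156 exon bases with *Gm42674* on the same strand, which had at most 3.61 counts in any library.

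Most genes that S100 proteins are known to act with were not called. Over all tested genes 4.49% were called higher and 3.04% lower. Of 9 receptor genes 8 were tested and 1 was called higher, *Emb* (embigin), with a log2 fold change of 0.36 (SE 0.03, edgeR adjusted p = 6.04e-04). *Tlr4* had a log2 fold change of 0.11 (edgeR adjusted p = 0.331), and *Ager* had 0 to 6 counts in vehicle libraries and 6 to 9 with bilirubin, too few to test. The median over the 8 tested was -0.02. Of 22 intracellular and secretory partners 20 were tested, 4 were called higher and none lower, with a median of 0.05. Beside *Anxa1* and *Anxa2* these were *Ahnak*, a scaffold of the S100A10 complex (log2 fold change 0.21, edgeR adjusted p = 0.00408, called under 11 of 13 alternatives), and *Il1a*, the cytokine whose release involves S100A13. *Il1a* went from 3 to 17 counts per library to 51 to 143, a log2 fold change of 3.51 (SE 0.43, edgeR adjusted p = 0.00191), while *S100a13* was not called.

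Annexins, which bind calcium without EF-hands, and the other EF-hand genes were also counted, against 4.49% called higher over all tested genes. Of 12 annexins 9 were tested and 4 were called higher, *Anxa1*, *Anxa2*, *Anxa4* (log2 fold change 0.24, edgeR adjusted p = 0.0116) and *Anxa5* (0.21, edgeR adjusted p = 0.0202), with a median of 0.06 over the 9. *Anxa4* and *Anxa5* were each called under 10 of 13 alternatives. Of 33 other EF-hand genes 32 were tested and 2 were called higher, with a median of 0.03. These were *Aif1* (IBA1, an actin-bundling protein of macrophages), from 9.94 to 18.0 CPM with a log2 fold change of 0.83 (edgeR adjusted p = 0.00279), and *Myl12b* (a myosin light chain), with 0.20 (edgeR adjusted p = 0.0369, called under 8 of 13 alternatives).

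**Figure D4:**
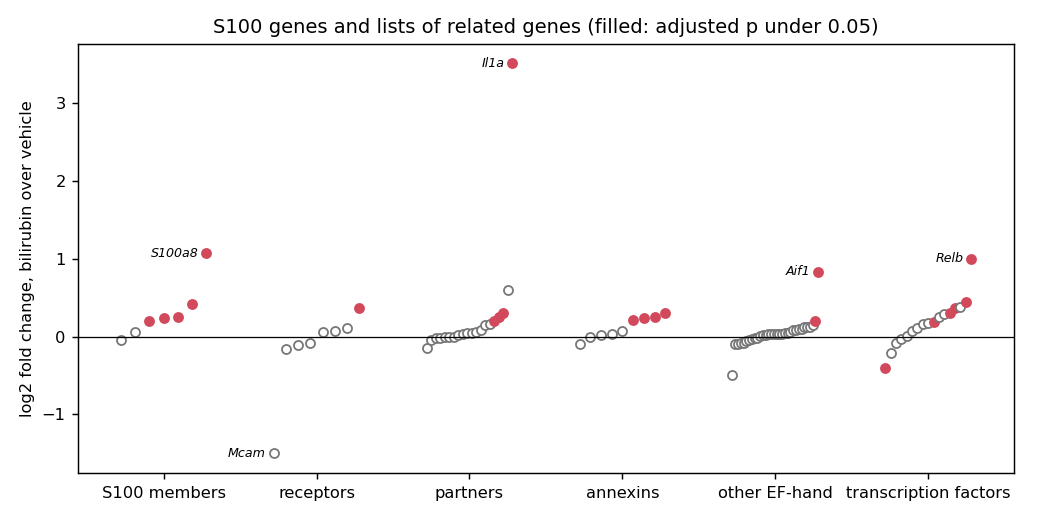
Log2 fold change of bilirubin over vehicle (edgeR) for the 7 tested S100 genes and for the tested genes of each related list, sorted within a list. Filled circles had an adjusted p under 0.05, and *Anxa1* and *Anxa2* belong to both the partners and the annexins, *Anxa6* and *Anxa11* likewise. Called genes number 5 of 7, 1 of 8, 4 of 20, 4 of 9, 2 of 32 and 6 of 17 from left to right. Over all tested genes 7.53% were called.

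Of 18 transcription factor genes known to act on S100 genes in myeloid cells, 17 were tested, 5 were called higher and 1 lower. Their median log2 fold change was 0.17. The shares over all tested genes were 4.49% higher and 3.04% lower. *Relb*, an NF-kB subunit, rose by 1.00 (SE 0.08, edgeR adjusted p = 2.21e-04), and the AP-1 genes *Fos* and *Junb* by 0.45 and 0.36 (edgeR adjusted p = 5.94e-04 and 0.0112, *Junb* called under 11 of 13 alternatives). *Klf4* rose by 0.30 and *Nfe2l2* by 0.19 (edgeR adjusted p = 0.00773 and 0.0262, called under 10 and 8 of 13 alternatives). *Cebpa* fell by 0.41 on the log2 scale (SE 0.04, edgeR adjusted p = 4.81e-04). *Cebpb* and *Cebpd*, of the same C/EBP family, had log2 fold changes of 0.29 and 0.37 that did not pass (edgeR adjusted p = 0.0592 and 0.217). Whether any of these factors has a part in the changes of S100 genes was not tested.

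The genes whose profile over the 8 libraries was most like that of each called S100 gene were found by the root mean square (RMS) difference of log2 CPM, each gene centred on its own mean, as a description without a test. For *S100a8*, whose own RMS deviation was 0.58, the nearest were *Treml4* (a TREM-like receptor, 0.09), *Ier3* (an immediate early gene, 0.12) and *Pcx* (pyruvate carboxylase, 0.16). For *S100a10* they were *Slc16a10* (an aromatic amino acid transporter, 0.04), *Epn2* (an endocytic adaptor, 0.07) and *Blvrb* (biliverdin reductase B, 0.07), against an own deviation of 0.24. *Anxa2* was the third nearest gene to both *S100a4* and *S100a6*, at 0.04 for each. The closer genes were *Rpl39* (a ribosomal protein, 0.03) and *Vrk2* (a kinase, 0.04) for *S100a4*, and *Atpif1* (the inhibitor of ATP synthase, 0.04) and *Dera* (deoxyribose-phosphate aldolase, 0.04) for *S100a6*. For *S100a11* they were *Gm11427* (0.02), *Snx10* (a sorting nexin, 0.03) and *Cyba* (the p22phox subunit of NADPH oxidase, 0.03).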

How the data were processed

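RNA from 8 BMDM cultures was sequenced from poly A libraries. The authors trimmed reads with Cutadapt 3.4 and Trim Galore 0.6.7, aligned them with STAR 2.7.9a and quantified them with Salmon 1.10.1 (versions from the submitters' processing notes). They deposited estimated counts per gene, without normalization, and estimated counts and TPM per transcript for each library. TPM depends on the transcript lengths in their annotation (GRCm39).

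Rounded counts were compared with edgeR 4.0.16 in R 4.3.3 (TMM scaling, filterByExpr with a minimum count of 10 and a minimum total of 15, mouse and treatment as terms, quasi-likelihood test, Benjamini-Hochberg adjustment over 13722 genes, threshold 0.05). The 27771 genes at 0 throughout stayed out. CPM used TMM-scaled library sizes, and per-mouse log2 changes a prior count of 2. Intervals used the fit's degrees of freedom. TPM was summed per gene. The labels number the cultures, and vehicle and bilirubin cultures with the same number were taken as the same mouse. The paper's methods used the mouse identifier as a covariate. Correlations of same-mouse deviations ran from -0.0053 to 0.134. Alternatives were no mouse term, DESeq2 1.42.0, limma 3.58.1 (voom or trend), other scalings and filters, a length offset, and each mouse left out. Positions are from GENCODE M39.

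The members and gene lists were chosen with earlier results of these data known. Genes named were the 8 members, up to 6 called genes per list by adjusted p, 10 fixed genes, and the 3 nearest profiles of each called member; other markers were named after their values were seen. P-values from the fit with mouse as a term set the change within mice against its variation over the 4 mice. They do not measure the spread between mice.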

Additional observations from a re-analysis of the deposited data

How the results depend on the processing

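The 7 tested S100 genes were refitted under 13 alternatives, and 87 of the 91 values kept their direction and their side of the threshold. With no mouse block in the model, 3 S100 genes were called in place of 5 (*S100a8*, *S100a10* and *S100a11*), and 686 genes in all in place of 1033. Dropping the pairing of cultures by mouse ended the calls of *S100a4* (edgeR adjusted p = 0.197) and *S100a6* (0.0887). Leaving out a mouse in turn left 4 to 5 S100 genes called, with *S100a4* lost without mouse 4 (edgeR adjusted p = 0.0696), and 377 to 1910 genes in all. Leaving out mouse 1 gave 1910, mouse 2 gave 634, mouse 3 gave 377 and mouse 4 gave 441. *S100a1* turned from -0.04 to positive in log2 fold change without mouse 1 (range over left-out mice -0.0808 to 0.0253) and was not called in any case. The number of all genes called was 1692 without the filter on low counts and 579 when transcript length entered as an offset, and both of these settings called 5 S100 genes. Scaling by library size alone gave 527 genes higher and 556 lower in place of 616 and 417, moved the median of all tested genes to -0.028, and also called 5 S100 genes higher. The causes were not tested. *S100a9*, with 52 counts over 8 libraries, and the 10 other S100 genes of the table had too few counts to be tested.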
